A study of Mus musculus with 6 samples.

Results

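The 8 genes described here move iron into, within and out of cells, or free and store it, and were followed in a mouse myeloid progenitor line after retroviral transduction. The genes are Tfrc, Slc11a1, Slc11a2, Slc40a1, Hmox1, Fth1, Ftl1 and Cp. Members were all array probes whose RefSeq accession belongs to one of these genes, which gave 13 probes for the 8 genes, out of 55681 probes and 20284 matched genes on the array. The study measured RNA of Tot2 cells, a myeloid progenitor line taken from an Irf8 knockout mouse, so all groups share that knockout background. Cells received a retrovirus for FLAG-tagged IRF8 (MSCV-IRF8), a retrovirus for FLAG-tagged KLF4 (MSCV-KLF4) or the empty MSCV-puro control virus. IRF8 and KLF4 are transcription factors of the monocyte lineage, and the study asked which genes follow each of them as the progenitors become monocyte-like. All groups were grown in 20% serum with the cytokine GM-CSF at 5.0 ng/ml. Virus was applied with polybrene at 4 µg/ml, puromycin at 2 µg/ml was added 48 hr after transduction, and cells were collected on day 4. A single line stands for each group, and each of the 3 groups was measured on 2 single-colour arrays, 1 in each of 2 independent experiments.

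Mammalian cells take up transferrin-bound iron through transferrin receptor 1 (Tfrc), release it in the endosome, and carry it to the cytosol through the divalent metal transporter Slc11a2. Iron that is not used is stored inside ferritin shells of heavy (Fth1) and light (Ftl1) chains, and iron leaves cells through ferroportin (Slc40a1) with the help of ferroxidases such as ceruloplasmin (Cp). Macrophages also free iron from the heme of engulfed red cells with heme oxygenase 1 (Hmox1), and Slc11a1 (NRAMP1) moves metal ions out of their phagosomes. Ferritin, ferroportin and transferrin receptor are also controlled after transcription by iron regulatory proteins. RNA signals show such control only where it changes the amount of RNA, and cannot tell it from a change in transcription.

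Signals are given as log2 of the array intensity relative to the 75th percentile of the same array, so that 0 is the 75th percentile, and values are listed for experiment 1 and then experiment 2. That percentile lay at an intensity of 436 to 974, and between 47.1% and 56.8% of an array's probes stood well above background, with 0 saturated spots. The pair of arrays in each group had r = 0.993 to 0.995 across genes, which are not independent replicates. The number of arrays limits the precision, since exact permutation with 2 arrays a group, two-sided, reaches p = 0.333 at the lowest. The test was therefore limma's, in which genes share information on the spread, and a gene counted as called at an adjusted p under 0.05. In bulk RNA, fewer cells of a type and less RNA per cell cannot be told apart.

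The labels were checked first. The Irf8 probe read 2.94 and 3.05 on IRF8-labelled arrays, 2.18 and 2.16 on KLF4-labelled arrays and 0.49 and 0.64 on control arrays. The Klf4 probe read 4.46 and 4.61 on IRF8-labelled arrays, -1.56 and -1.33 on KLF4-labelled arrays and -1.62 and -1.28 on control arrays. Klf4 signal was thus not higher with the KLF4 virus (difference from control 0.00 ± 0.16 (SE), limma adjusted p = 0.987), and the position of the probe relative to the transduced sequence was not analysed here. The groups are therefore called IRF8-labelled and KLF4-labelled, and each direction below rests on the labels.

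All 8 members passed the filter on dim signals. Slc11a1 and Cp passed it only through the transduced groups, as neither was well above background on a control array. In effect these genes could only be called higher against control, so their calls give the counts no support. With signal required on all 6 arrays they were not tested, and 2 members were called higher in each comparison with control. Against control, IRF8-labelled cells had 4 members called higher (Slc11a1, Hmox1, Fth1 and Cp) and 2 called lower (Tfrc and Slc40a1), while 25.8% of the 13245 genes tested were called higher and 35.7% lower, 61.5% in all. KLF4-labelled cells had the same 4 members called higher and Tfrc called lower, against 10.4% of all genes higher, 8.87% lower and 19.2% in all. Between IRF8-labelled and KLF4-labelled cells, Hmox1 was called higher and Tfrc and Slc40a1 lower, with 23.7% of all genes higher, 26.8% lower and 50.6% in all. The comparisons with control share the control arrays, so they are not independent of each other. Median differences over all genes tested were -0.13 for IRF8-labelled against control, -0.16 for KLF4-labelled against control and -0.01 for IRF8-labelled against KLF4-labelled.

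**Figure D1:**
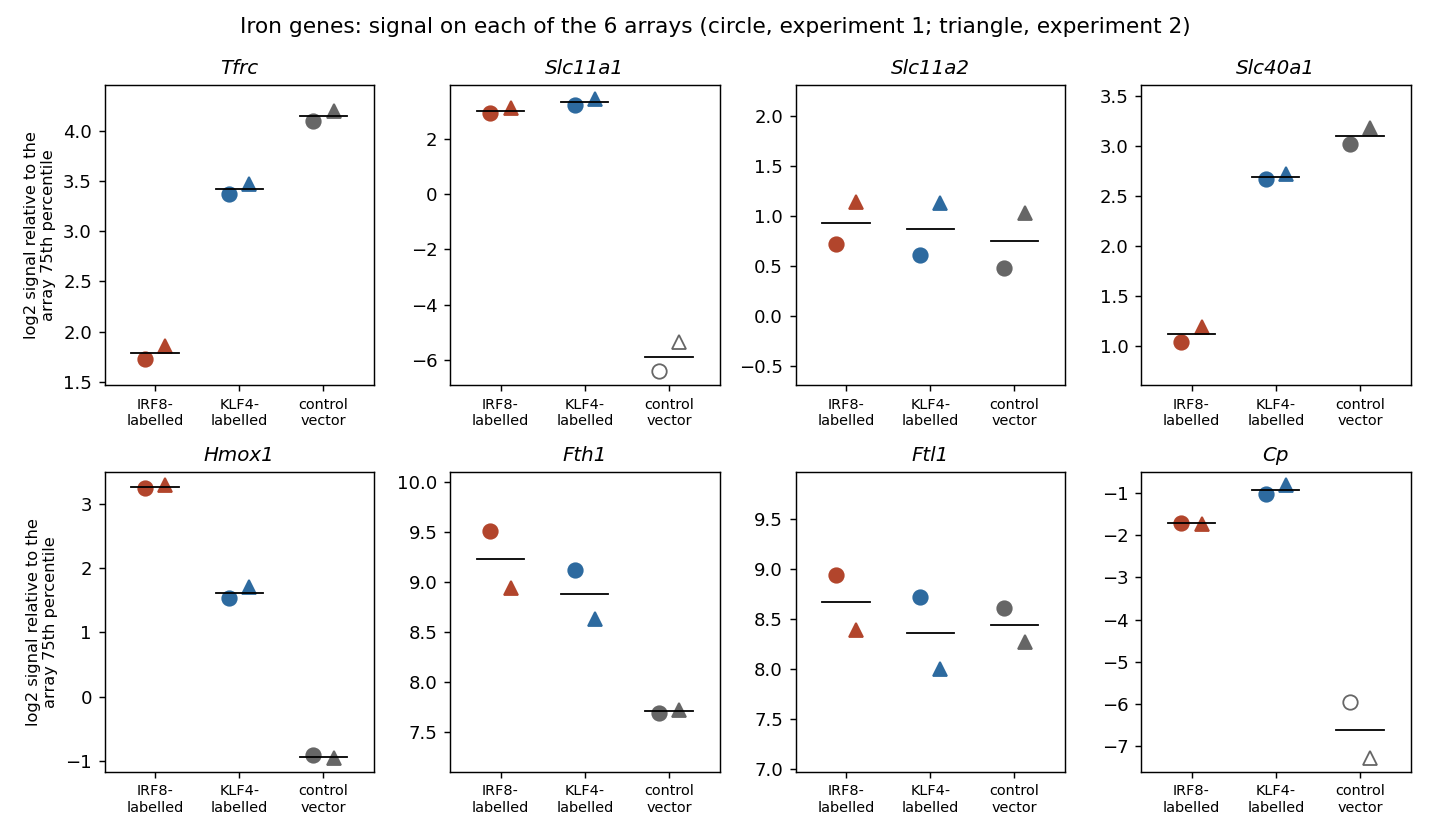
Log2 signal of the 8 iron genes (y axis, relative to the 75th percentile of the array) on each of the 6 arrays, with IRF8-labelled, KLF4-labelled and control cells from left to right, a bar at the mean of each group and open symbols where the probe was not well above background. Slc11a1 and Cp were below background in control cells alone, and Tfrc and Slc40a1 were lowest in IRF8-labelled cells.

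**Figure D2:**
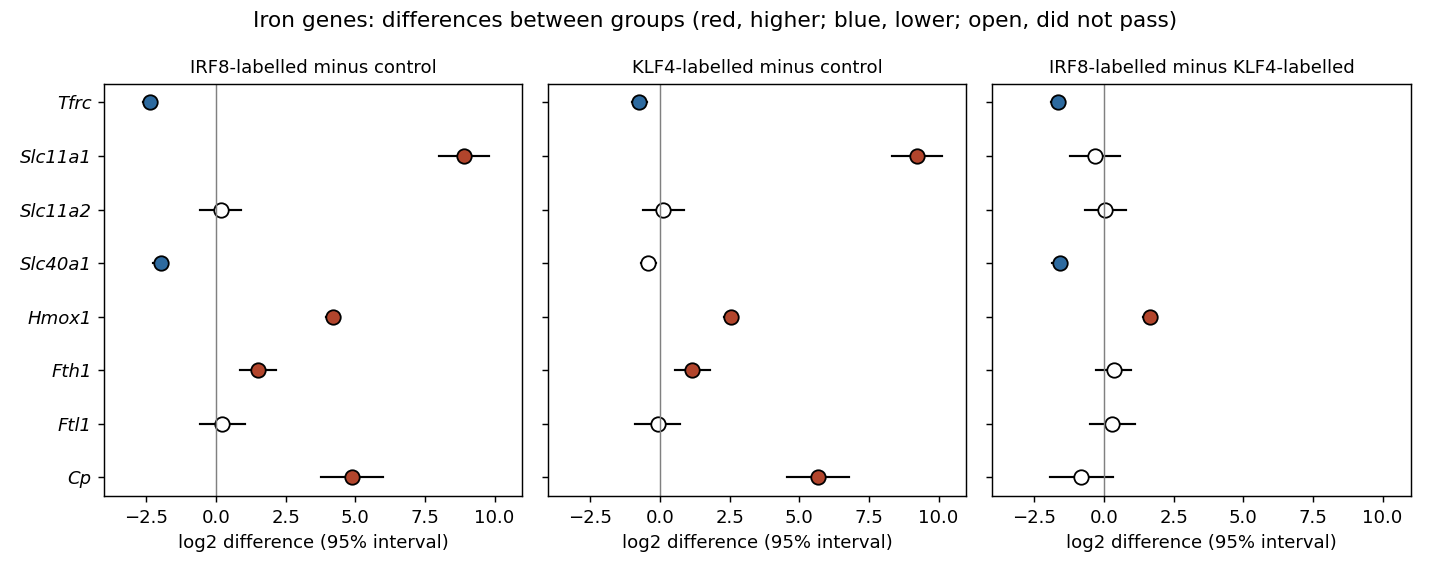
Log2 differences of the 8 genes (x axis) with 95% intervals from limma, for IRF8-labelled minus control, KLF4-labelled minus control and IRF8-labelled minus KLF4-labelled cells, filled where the adjusted p passed 0.05. For Slc11a1 and Cp the differences from control are the fitted values, since control arrays were below background.

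The promoters of Slc11a1 and Cp are shown because these genes were measurable in both transduced groups and below background in control cells, and that of Tfrc because it was called in all 3 comparisons. Windows of RefSeq (GRCm38.p6) were found for 5 of the 8 members: Tfrc, Slc11a1, Fth1, Ftl1 and Cp. Hmox1, Slc40a1 and Slc11a2 had no window and were not searched. There were 8 windows in all, with more than 1 for some genes, and the 250 bases before the start are printed 5′ to 3′ on the sense strand. Capitals mark matches to GGGNGNGG, a KLF-type motif, or to TGANNNNGC, a loose form of the core of the antioxidant response element, searched on both strands.
Slc11a1, chr1:74374953-74375202, plus strand: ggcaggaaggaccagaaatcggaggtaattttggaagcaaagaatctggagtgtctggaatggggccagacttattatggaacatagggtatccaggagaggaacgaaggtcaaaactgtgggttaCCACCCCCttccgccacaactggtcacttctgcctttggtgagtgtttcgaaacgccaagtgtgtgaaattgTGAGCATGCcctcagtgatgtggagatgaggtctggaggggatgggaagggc
Cp, chr3:19956804-19957053, plus strand: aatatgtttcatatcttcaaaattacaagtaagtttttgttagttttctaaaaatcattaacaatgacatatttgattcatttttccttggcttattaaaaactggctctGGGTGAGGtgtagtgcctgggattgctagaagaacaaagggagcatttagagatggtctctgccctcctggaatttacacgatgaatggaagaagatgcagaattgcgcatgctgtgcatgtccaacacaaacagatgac
Tfrc, chr16:32608646-32608895, plus strand: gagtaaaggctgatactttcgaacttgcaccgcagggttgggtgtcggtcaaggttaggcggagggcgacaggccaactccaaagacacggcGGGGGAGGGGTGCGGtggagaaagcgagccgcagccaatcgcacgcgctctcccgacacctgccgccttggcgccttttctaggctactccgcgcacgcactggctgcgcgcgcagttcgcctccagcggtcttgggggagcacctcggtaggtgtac
The KLF-type motif was present in 6 of the 8 member windows, and 45.9% of 32851 windows in the table held it. In the printed Tfrc window its 3 matches overlap each other. The loose antioxidant core was present in 1 of 8 windows, that of Slc11a1, against 35.2% of all windows, and Hmox1 is not among the genes searched. The ETS-IRF composite motif (GGAA and GAAA parted by 2 bases), the interferon response motif (GAAA and GAAA parted by 2 bases) and the E-box CACGTG, all searched on both strands, were in 0 of 8 windows, against 2.3%, 2.98% and 6.02% of all windows. The loop of the iron-responsive element, searched as CAGTGN on the sense strand in the 50 bases after the start, was in 0 of 8 windows and in 7.08% of all. The rest of each transcript was not searched, so an element further along would be missed and the 0 does not speak against such elements. A match is only a run of letters, and no match says only that the letters are not in these windows.

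Among the uptake genes, Tfrc, the receptor for iron-loaded transferrin, was lowest in IRF8-labelled cells. Its brightest probe, A_52_P228236, read 1.72 and 1.85 in IRF8-labelled cells, 3.37 and 3.48 in KLF4-labelled cells, and 4.10 and 4.21 in control cells. The 3 groups did not overlap, and KLF4-labelled cells lay between the others. Tfrc fell 5.16-fold in IRF8-labelled cells against control (difference of log2 signals -2.37 ± 0.10 (SE), 2 arrays in each group, limma adjusted p = 6.23e-05), with -2.38 and -2.36 within the experiments. The fall in KLF4-labelled cells was 1.66-fold (log2 -0.73 ± 0.10 (SE), limma adjusted p = 0.01), with -0.73 in each experiment. That call was lost when arrays were scaled on their median (adjusted p = 0.0763) or on spike-in controls (0.545), without a filter (0.0507), without KLF4 replicate 1 (0.0732), without KLF4 replicate 2 (0.0548) and without control replicate 2 (0.05). IRF8-labelled cells were 3.11-fold below KLF4-labelled cells (log2 -1.64 ± 0.10 (SE), limma adjusted p = 0.000343). Another pair of Tfrc probes gave differences of -2.53 and -2.47 between IRF8-labelled and control cells, both called over all probes. Between KLF4-labelled and control cells they gave -0.70, which missed the threshold (adjusted p = 0.175), and -0.73 (adjusted p = 0.0277).

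Slc11a1 had the widest gap between transduced and control cells of the 8 genes. The protein, NRAMP1, is a metal transporter of the phagosome membrane in macrophages and neutrophils. Its single probe read 2.92 and 3.09 in IRF8-labelled cells, 3.22 and 3.45 in KLF4-labelled cells, and -6.41 and -5.36 in control cells. Raw intensities were 3305 and 7516 in IRF8-labelled cells and 4989 and 10662 in KLF4-labelled cells, against 6.49 and 20.7 in control cells, where the probe was not well above background. Against such a group the fold is a nominal lower bound, taken from the dimmest probe on that array that stood well above background. Brighter probes could still miss that mark, as Slc39a14 did at 34.5 on the first control array, where the dimmest was 27.6. Folds given as "at least" are therefore not strict limits. Slc11a1 rose at least 226-fold in IRF8-labelled cells (fitted difference 8.89 ± 0.35 (SE), limma adjusted p = 5.28e-05) and at least 284-fold in KLF4-labelled cells (fitted difference 9.22 ± 0.35 (SE), limma adjusted p = 0.000143). With normexp background correction, which adds an offset of 50 to each signal, the fitted differences were 6.14 and 6.49 for IRF8-labelled and KLF4-labelled cells, below those bounds of 7.82 and 8.15 on the log2 scale. Differences within the experiments were 9.33 and 8.45 for IRF8-labelled and 9.63 and 8.81 for KLF4-labelled cells. IRF8-labelled cells lay below KLF4-labelled cells in both experiments without overlap, but the difference of -0.33 (95% interval -1.23 to 0.58) did not pass (limma adjusted p = 0.482).

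Slc11a2, the endosomal iron transporter DMT1, gave signals of 0.72 and 1.15 in IRF8-labelled cells, 0.61 and 1.14 in KLF4-labelled cells, and 0.48 and 1.04 in control cells on its brighter probe, A_51_P388737. The groups overlapped, and the second experiment was higher than the first in each of them. The difference from control was 0.18 in IRF8-labelled cells (95% interval -0.56 to 0.91, limma adjusted p = 0.62) and 0.12 in KLF4-labelled cells (95% interval -0.62 to 0.85, adjusted p = 0.78). Within the experiments it was 0.24 and 0.11 in IRF8-labelled cells and 0.14 and 0.10 in KLF4-labelled cells. With the replicate block neither passed (limma adjusted p = 0.0518 and 0.159). The dimmer probe, A_52_P254298, read 0.51 and -1.14 in IRF8-labelled cells, -1.48 and -1.55 in KLF4-labelled cells, and -1.83 and -1.83 in control cells. Its difference from control in IRF8-labelled cells was 2.34 in experiment 1 and 0.69 in experiment 2, and 1.52 ± 0.53 (SE) over both (limma adjusted p over all probes 0.0659). The mean of both probes was called (0.85, limma adjusted p = 0.0287), so the outcome for Slc11a2 depended on the probe.

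**Figure D3:**
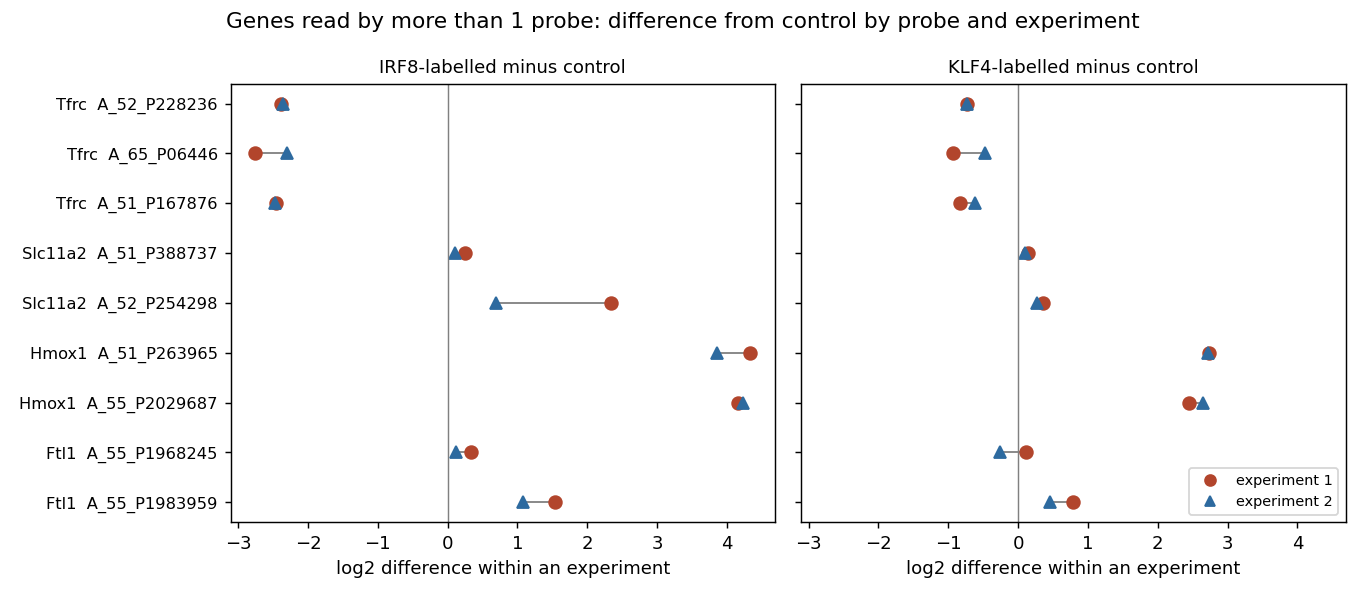
Log2 difference from control within each experiment (x axis; circle, experiment 1; triangle, experiment 2) for every probe of the genes with more than 1 probe, in IRF8-labelled cells on the left and KLF4-labelled cells on the right. Probes of Tfrc and of Hmox1 lay close to each other, whereas those of Slc11a2 and of Ftl1 lay apart.

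Storage was read by the ferritin chains. Fth1, which holds the ferroxidase site of ferritin, read 9.51 and 8.94 in IRF8-labelled cells, 9.12 and 8.63 in KLF4-labelled cells, and 7.69 and 7.72 in control cells. Both transduced groups lay above control without overlap. They overlapped each other across experiments, although IRF8-labelled cells were higher within each experiment. Fth1 rose 2.87-fold in IRF8-labelled cells (log2 1.52 ± 0.25 (SE), limma adjusted p = 0.00432), with 1.82 and 1.22 within the experiments. In KLF4-labelled cells it rose 2.25-fold (log2 1.17 ± 0.25 (SE), limma adjusted p = 0.0354), with 1.43 and 0.91 within the experiments. The KLF4-labelled call was lost without the filter on dim probes (adjusted p = 0.113), when every probe was adjusted (0.0547) and without KLF4 replicate 1 (0.135), KLF4 replicate 2 (0.0727), control replicate 1 (0.111) or control replicate 2 (0.114). Fth1 in IRF8-labelled minus KLF4-labelled cells was 0.35 (95% interval -0.29 to 0.99, limma adjusted p = 0.296), with 0.39 and 0.31 within the experiments.

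Ftl1, the light chain that aids mineral formation in the ferritin core, was read by probes that disagreed. The main probe, A_55_P1968245, read 8.95 and 8.39 in IRF8-labelled cells, 8.72 and 8.0 in KLF4-labelled cells, and 8.61 and 8.27 in control cells, and the groups overlapped. Differences from control were 0.23 in IRF8-labelled cells (95% interval -0.58 to 1.04, limma adjusted p = 0.564) and -0.08 in KLF4-labelled cells (95% interval -0.89 to 0.73, adjusted p = 0.872). Within the experiments they were 0.33 and 0.12 in IRF8-labelled cells and 0.11 and -0.27 in KLF4-labelled cells. The IRF8-labelled difference passed after quantile normalization (0.32, adjusted p = 0.0216) and after normexp background correction (0.30, adjusted p = 0.0168). The other probe, A_55_P1983959, read 9.14 and 8.30 in IRF8-labelled cells, 8.38 and 7.67 in KLF4-labelled cells, and 7.60 and 7.22 in control cells. With it, Ftl1 rose 2.48-fold in IRF8-labelled cells (log2 1.31 ± 0.38 (SE), limma adjusted p over all probes 0.0383), and the KLF4-labelled difference of 0.62 did not pass (adjusted p = 0.336). The RefSeq annotation lists pseudogene copies of Ftl1, so what either probe reads is uncertain.

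Hmox1 stands for heme breakdown. It encodes the enzyme that opens heme and frees its iron, and its signals were 3.25 and 3.28 in IRF8-labelled cells, 1.53 and 1.70 in KLF4-labelled cells, and -0.91 and -0.96 in control cells. The 3 groups were apart by far more than the spread between experiments. Hmox1 rose 18.3-fold in IRF8-labelled cells (log2 4.20 ± 0.09 (SE), limma adjusted p = 1.31e-05) and 5.84-fold in KLF4-labelled cells (log2 2.55 ± 0.09 (SE), limma adjusted p = 0.000133). Against KLF4-labelled cells, IRF8-labelled cells were 3.14-fold higher (log2 1.65 ± 0.09 (SE), limma adjusted p = 0.000306). A brighter probe, A_51_P263965, whose spot the scanner software marked on the second IRF8-labelled array, gave 17.1-fold, 6.63-fold and 2.58-fold for the same comparisons when that spot was kept.

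The exporter Slc40a1, known as ferroportin, read 1.04 and 1.19 in IRF8-labelled cells, 2.67 and 2.72 in KLF4-labelled cells, and 3.02 and 3.18 in control cells. IRF8-labelled cells stood well below the others, and KLF4-labelled cells lay below control without overlap. Slc40a1 fell 3.95-fold in IRF8-labelled cells against control (log2 -1.98 ± 0.10 (SE), limma adjusted p = 0.000115), with -1.98 and -1.99 within the experiments. Against KLF4-labelled cells, IRF8-labelled cells were 2.98-fold lower (log2 -1.58 ± 0.10 (SE), limma adjusted p = 0.000432). For KLF4-labelled against control cells, Slc40a1 gave a difference of -0.41 (95% interval -0.67 to -0.14) and did not pass (limma adjusted p = 0.0543), with -0.35 and -0.46 within the experiments. It passed with the experiment as a replicate block (adjusted p = 0.0125), with limma's trend and robust settings (0.0318), and when only genes above background on all 6 arrays were tested (0.0441).

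Cp, a copper ferroxidase that oxidises the iron that ferroportin releases, was dim. Its probe read -1.72 and -1.73 in IRF8-labelled cells and -1.02 and -0.82 in KLF4-labelled cells, against -5.94 and -7.28 in control cells, where it was not well above background. Cp rose at least 8.52-fold in IRF8-labelled cells (fitted difference 4.89 ± 0.43 (SE), limma adjusted p = 0.000534) and at least 14.9-fold in KLF4-labelled cells (fitted difference 5.69 ± 0.43 (SE), limma adjusted p = 0.00129). Normexp background correction gave smaller differences of 1.82 and 2.45 for IRF8-labelled and KLF4-labelled cells, below the bounds of 3.09 and 3.89 on the log2 scale. Differences within the experiments were 4.22 and 5.55 for IRF8-labelled and 4.92 and 6.46 for KLF4-labelled cells. IRF8-labelled cells were below KLF4-labelled cells without overlap. That difference of -0.80 (95% interval -1.91 to 0.31) did not pass over all 6 arrays (limma adjusted p = 0.186). It passed when only these groups were fitted (limma adjusted p = 0.00687) and after normexp correction (adjusted p = 0.00448). Leaving out either control array gives the same fit as these groups alone, so it is not a separate check.

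Other genes of the pathway were taken from 8 lists of 104 genes, of which 90 were tested. In IRF8-labelled cells against control 34 were called higher, 34 lower and 22 did not pass, with a median difference of -0.01. In KLF4-labelled cells 14 were called higher, 6 lower and 70 did not pass, with a median of -0.02. Between IRF8-labelled and KLF4-labelled cells 26 were called higher and 22 lower, with a median of 0.06. Of all genes tested, 25.8% were called higher and 35.7% lower in IRF8-labelled cells against control. The shares were 10.4% and 8.87% in KLF4-labelled cells, and 23.7% and 26.8% between the transduced groups. The list counts below stand against these shares, and some lie near them. Whether any list departs from them was not tested.

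**Figure D4:**
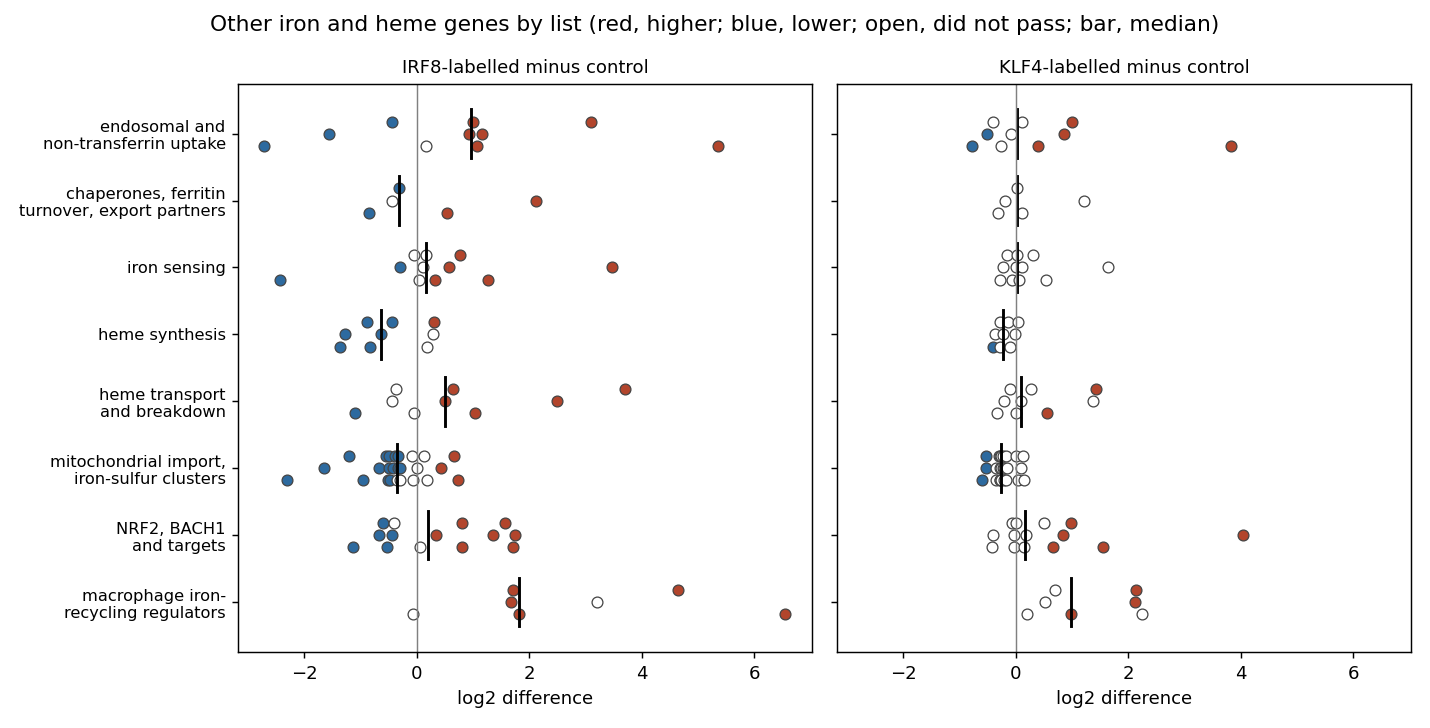
Log2 differences from control (x axis) of the genes tested in the 8 iron and heme lists, with IRF8-labelled cells on the left and KLF4-labelled cells on the right, filled where called and with a bar at the list median. Heme synthesis and mitochondrial genes were mostly lower in IRF8-labelled cells, and uptake and recycling-regulator genes mostly higher.

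In the list of endosomal and non-transferrin uptake genes, 6 of 10 were called higher and 3 lower in IRF8-labelled cells (median 0.96), with 3 higher after spike-in scaling. Lrp1, a receptor for hemopexin-bound heme, read 5.16 and 5.32 in IRF8-labelled cells, 3.62 and 3.80 in KLF4-labelled cells, and -0.29 and 0.03 in control cells. Lrp1 rose 41.1-fold in IRF8-labelled cells (limma adjusted p = 2.04e-05) and 14.3-fold in KLF4-labelled cells (limma adjusted p = 0.000145). Slc39a14, a carrier of zinc and free iron, rose 8.60-fold in IRF8-labelled cells (limma adjusted p = 0.000207). It was well above background on 1 of 2 control arrays, and normexp correction gave a smaller difference, 1.96 on the log2 scale (adjusted p = 8.07e-05). Lcn2, which binds bacterial iron carriers and is stored in neutrophil granules, fell 6.52-fold in IRF8-labelled cells (limma adjusted p = 3.86e-05). In KLF4-labelled cells 4 were called higher and 2 lower (median 0.02), among them Slc39a14 (2.02-fold higher, adjusted p = 0.0307, lost with normexp at 0.0557) and Slc22a17, a proposed Lcn2 receptor (1.81-fold higher, adjusted p = 0.0428). Those counts were 1 to 3 higher and 0 to 1 lower when any 1 of the 6 arrays was left out, 1 higher and 0 lower with spike-in scaling, and 4 lower with the replicate block. Slc39a14 and Slc22a17 lost their KLF4-labelled calls without KLF4 replicate 1 (limma adjusted p = 0.125 and 0.105), KLF4 replicate 2 (0.143 and 0.183) or control replicate 1 (0.097 and 0.124), and Slc22a17 also without either IRF8 replicate (0.0666).

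Of 5 genes for iron chaperones, ferritin turnover and export partners, 2 were called higher and 2 lower in IRF8-labelled cells (median -0.32), and 0 of 5 were called in KLF4-labelled cells (median 0.03). Ncoa4, the receptor that carries ferritin to lysosomes, fell 1.81-fold in IRF8-labelled cells (limma adjusted p = 0.000694), and Hamp2, a hepcidin copy whose probe may read its near-identical neighbour, gave a fitted difference of 2.12 on the log2 scale (adjusted p = 0.00357). It was well above background on 1 of 2 control arrays, and normexp gave 0.69 (adjusted p = 0.0102). In KLF4-labelled cells Hamp2 was called with the replicate block (1.22, limma adjusted p = 0.011) and without control replicate 2 (1.64, adjusted p = 0.0275), which made the count 1 higher of 5. Herc2, a ubiquitin ligase that acts on Ncoa4, rose 1.46-fold (adjusted p = 0.00294), a call lost with spike-in scaling (adjusted p = 0.383). Among 11 iron-sensing genes, 5 were called higher and 2 lower in IRF8-labelled cells (median 0.17), and 0 of 11 in KLF4-labelled cells (median 0.03). With the replicate block the KLF4-labelled counts were 2 higher and 1 lower, and the 5 higher in IRF8-labelled cells were 3 without IRF8 replicate 2 or control replicate 1 and 2 with spike-in scaling. Egln3, an oxygen-sensing prolyl hydroxylase, fell 5.36-fold in IRF8-labelled cells (limma adjusted p = 0.000124), and Vhl, a ubiquitin ligase subunit of the same hypoxia pathway, rose 2.41-fold (adjusted p = 0.00078). Zfp36, which promotes the decay of mRNAs, gave a fitted difference of 3.48 on the log2 scale (adjusted p = 0.0183), with 1.59 after normexp and with 1 of 2 control arrays well above background. The adjusted p was 0.0678 without IRF8 replicate 2 and 0.073 without control replicate 1.

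Heme synthesis genes were mostly lower in IRF8-labelled cells. Of 9 tested, 6 were called lower and 1 higher (median -0.63), against 1 lower and 0 higher in KLF4-labelled cells (median -0.22), or 5 lower there with the replicate block. Alad, which makes porphobilinogen, fell 2.43-fold in IRF8-labelled cells (limma adjusted p = 0.000229), Urod fell 1.84-fold (adjusted p = 0.00202) and Cpox fell 2.57-fold (adjusted p = 0.0196). The Cpox call was lost without IRF8 replicate 1 (adjusted p = 0.0735) and without control replicate 2 (0.0751). In KLF4-labelled cells Alad fell 1.31-fold (limma adjusted p = 0.038), and that call was lost when any 1 of the 6 arrays was left out (adjusted p from 0.0843 to 0.176). In the list of heme transport and breakdown, 5 of 9 were called higher (3 with spike-in scaling) and 1 lower in IRF8-labelled cells (median 0.50). In KLF4-labelled cells 2 were higher and 0 lower (median 0.10). Blvrb, a biliverdin reductase, rose 5.68-fold in the IRF8-labelled group (limma adjusted p = 0.000205) and 2.70-fold in the KLF4-labelled group (limma adjusted p = 0.00546). Hpx, the plasma protein that binds free heme, rose at least 5.64-fold in IRF8-labelled cells (adjusted p = 0.00252), and the lysosomal heme exporter Slc48a1 fell 2.14-fold (adjusted p = 0.000484). Blvra, the other biliverdin reductase, rose 1.48-fold in KLF4-labelled cells (adjusted p = 0.0331), a call lost without KLF4 replicate 1 (0.137), KLF4 replicate 2 (0.144), control replicate 2 (0.11) or either IRF8 replicate (0.0696).

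Of 25 genes for mitochondrial iron import and iron-sulfur cluster assembly, 15 were called lower and 3 higher in IRF8-labelled cells (median -0.34), and 3 lower and 0 higher in KLF4-labelled cells (median -0.25). The 15 were 8 without IRF8 replicate 1, 9 without control replicate 2, and 4 (with 0 higher) after scaling on spike-in controls, and the replicate block gave 16 lower in KLF4-labelled cells. Slc25a37, the mitochondrial iron importer mitoferrin 1, fell 4.91-fold in IRF8-labelled cells (limma adjusted p = 0.00022), and Abcb10 fell 2.31-fold (adjusted p = 0.000471). Among those called in KLF4-labelled cells were Abcb10 (1.51-fold lower, adjusted p = 0.0213) and Abcb6 (1.44-fold lower, adjusted p = 0.0167). Both calls were lost without KLF4 replicate 1 (limma adjusted p = 0.103 and 0.0949), KLF4 replicate 2 (0.121 and 0.104) or control replicate 2 (0.0801 each), and with median or spike-in scaling. Abcb6 also lost its call without control replicate 1 (limma adjusted p = 0.0587), and Abcb10 without either IRF8 replicate (0.053).

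NRF2 activates and BACH1 represses stress genes, of which Hmox1 is an example. Of 14 other genes of this group, 7 were called higher and 5 lower in the IRF8-labelled group (median 0.21). That lower share, 35.7%, was the same as over all genes tested. In the KLF4-labelled group 5 were higher and 0 lower (median 0.16). The 5 lower in IRF8-labelled cells were 3 without IRF8 replicate 1 or either KLF4 replicate, and the 5 higher in KLF4-labelled cells were 3 without either KLF4 replicate. Spike-in scaling gave 4 higher and 1 lower in the IRF8-labelled group, and the replicate block 7 higher and 2 lower in KLF4-labelled cells. Slc7a11, the cystine importer, rose 3.36-fold in the IRF8-labelled group and 2.94-fold in the KLF4-labelled group (limma adjusted p = 0.000258 and 0.00146). Sulfiredoxin (Srxn1) rose 3.28-fold and 1.99-fold in these groups (adjusted p = 8.02e-05 and 0.0015), the second lost with spike-in scaling (0.113). Nqo1, a quinone reductase, rose at least 4.16-fold in KLF4-labelled cells (adjusted p = 0.00188), and on the IRF8-labelled and control arrays it was not well above background, so no fold is given between them, although the 7 called higher in the IRF8-labelled group include it (adjusted p = 0.0121). Among 7 regulators of iron recycling in macrophages, 5 were called higher and 0 lower in the IRF8-labelled group (median 1.83). In the KLF4-labelled group 3 were higher and 0 lower, or 5 higher with the replicate block (median 0.99, or 0.53 with genes at their bound). The transcription factor Maf rose at least 6.68-fold in IRF8-labelled cells (limma adjusted p = 0.000278), and Mitf rose 3.55-fold (adjusted p = 0.000134). Normexp correction gave log2 differences of 1.63 for Maf and 1.43 for Hpx in IRF8-labelled cells and of 1.29 for Nqo1 in KLF4-labelled cells, all below their bounds. In KLF4-labelled cells the calls were the sterol receptor Nr1h3, up 4.35-fold (limma adjusted p = 0.0017), Mitf (1.99-fold, adjusted p = 0.0037, lost with spike-in scaling at 0.122) and Maf (adjusted p = 0.0156). The fitted Maf difference was 2.13 on the log2 scale, or 0.66 after normexp. Maf was well above background on 1 of 2 KLF4-labelled arrays and on neither control array, so no minimum fold is given. The Maf call was lost without KLF4 replicate 1 or 2.

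Between IRF8-labelled and KLF4-labelled cells, Maf was 5.68-fold higher in IRF8-labelled cells (log2 2.51, limma adjusted p = 0.00314), with 1 of 2 KLF4-labelled arrays well above background and a log2 difference of 0.97 after normexp. Slc39a14 was 4.27-fold and Lrp1 2.88-fold higher in IRF8-labelled cells (adjusted p = 0.00121 and 0.00122), and Hpx was 5.03-fold higher (adjusted p = 0.0169), a call lost without IRF8 replicate 1 (0.0581), IRF8 replicate 2 (0.0605) or KLF4 replicate 2 (0.0743). Normexp gave log2 differences of 1.44 for Slc39a14, against 2.09, and 1.03 for Hpx, against 2.33. Lower in IRF8-labelled cells were Lcn2 (5.48-fold, adjusted p = 0.000136), Slc25a37 (5.44-fold, 0.000374), Nr1h3 (4.54-fold, 0.000714), Egln3 (4.43-fold, 0.000345) and Nqo1 (at least 4.51-fold, 0.00358), for which normexp gave a log2 difference of -1.02, smaller than its bound of -2.17. Gsr (2.10-fold, limma adjusted p = 0.00103), Slc48a1 (1.86-fold, 0.00156), Alad (1.85-fold, 0.00124) and Ncoa4 (1.84-fold, 0.00109) were also lower there. Vhl was 2.52-fold higher in IRF8-labelled cells (limma adjusted p = 0.00115). Smaller calls were Blvrb (2.11-fold higher), Aco1, an iron regulatory protein (1.67-fold higher), Iba57, Srxn1 and Herc2 (1.66-fold, 1.65-fold and 1.34-fold higher), and Urod and Alas1 (1.52-fold and 1.45-fold lower), and all 7 were lost with spike-in scaling (limma adjusted p from 0.0971 to 0.679). Herc2 was also lost without any 1 of the IRF8-labelled or KLF4-labelled arrays (0.0512 to 0.0657), Urod without IRF8 replicate 1 (0.0553) or KLF4 replicate 2 (0.0565), and Alas1 without IRF8 replicate 1 (0.064), IRF8 replicate 2 (0.0661) or KLF4 replicate 1 (0.06).

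The genes whose profile over the 6 arrays lay nearest to each member, with each profile centred on its own mean, were found by root-mean-square distance in log2 units. Tmed1 and Depdc1b were nearest to Slc40a1 (0.026 and 0.029), and Galr3 and Mbnl3 to Tfrc (0.059 and 0.065). Actg1 and Oog2 were nearest to Ftl1 (0.029 and 0.062), and Rheb and Anxa11 to Slc11a2 (0.050 and 0.052). Hmox1 was nearest to Tmem198 and H2bc4 (0.093 and 0.12), and Fth1 to Fbxo32 and Tmem8b (0.13 and 0.17). Slc11a1 lay nearest to Anpep and Agpat4 (0.24 and 0.25), and Cp to Plxdc1 and Il1f6 (0.20 and 0.23). Anpep, Plxdc1, Il1f6, Tmem198 and Fbxo32 were below background in control cells, as were Slc11a1 and Cp. Agpat4 had a mean of -4.98 in control cells, near the dimmest probes well above background on those arrays (-4.32 and -5.31). Distances that involve any of these genes rest in part on signals near or below background.

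Marker lists of other cell types moved with the groups. Summed signals, in multiples of the 75th percentile, of the 17 monocyte and macrophage markers on the array were 795 to 937 in IRF8-labelled cells, 543 to 691 in KLF4-labelled cells and 422 to 518 in control cells, and Timd4 was not above background on any array. Against control, 13 of the 16 tested were called higher and 2 lower in the IRF8-labelled group, and 10 higher and 0 lower in the KLF4-labelled group. Summed signals of the 13 neutrophil markers on the array were 610 to 759 in IRF8-labelled cells, 1504 to 2299 in KLF4-labelled cells and 2231 to 2976 in control cells (of 12 tested, 11 lower in IRF8-labelled cells, 1 higher and 6 lower in KLF4-labelled cells). The 6 were 1 or 2 without KLF4 replicate 1, KLF4 replicate 2 or control replicate 1, and Mmp8 was not above background on any array. Proliferation genes summed to 313 to 346 in IRF8-labelled cells, 637 to 642 in KLF4-labelled cells and 810 to 845 in control cells, and all 19 tested were called lower in the IRF8-labelled group and 8 in the KLF4-labelled group. The 8 became 0 with median or spike-in scaling, 0 to 2 when any 1 array was left out, and 17 with the replicate block.

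Erythroid cells also depend on iron import, and 7 of 14 erythroid markers were well above background on some array and tested. The globins Hbb-bs and Hbb-bt, Gata1, Add2 and Sptb were among the 7 not well above background on any array. In IRF8-labelled cells Hba-a2 and Hba-a1 were 8.60-fold and 3.28-fold higher, their probes possibly reading each other's transcript, and the erythropoietin receptor Epor and the factor Klf1 were 4.79-fold and 2.32-fold lower. The summed erythroid signal was 2.99 to 3.44 in IRF8-labelled cells, 3.13 to 3.80 in KLF4-labelled cells and 3.80 to 3.93 in control cells, with 2 called higher and 2 lower in the IRF8-labelled group and 0 called in the KLF4-labelled group. Fibroblast and packaging-cell markers summed to 196 to 249 in IRF8-labelled cells, 71.8 to 74.0 in KLF4-labelled cells and 40.4 to 42.0 in control cells, while Fn1 and Pdgfrb were not above background on any array. Such a sum is weighted by the brightest genes. The median difference of those tested was 0.71 in IRF8-labelled and 0.72 in KLF4-labelled cells on the log2 scale. Of the 8, 4 were above background on each IRF8-labelled array, 5 or 6 on KLF4-labelled and 4 or 5 on control arrays. Of 5 tested, 3 were called higher in each transduced group and 1 lower in IRF8-labelled cells, and the 3 in KLF4-labelled cells became 1 without KLF4 replicate 1, KLF4 replicate 2 or control replicate 1. The part of these shifts in the differences of the iron genes was not tested.

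**Figure D5:**
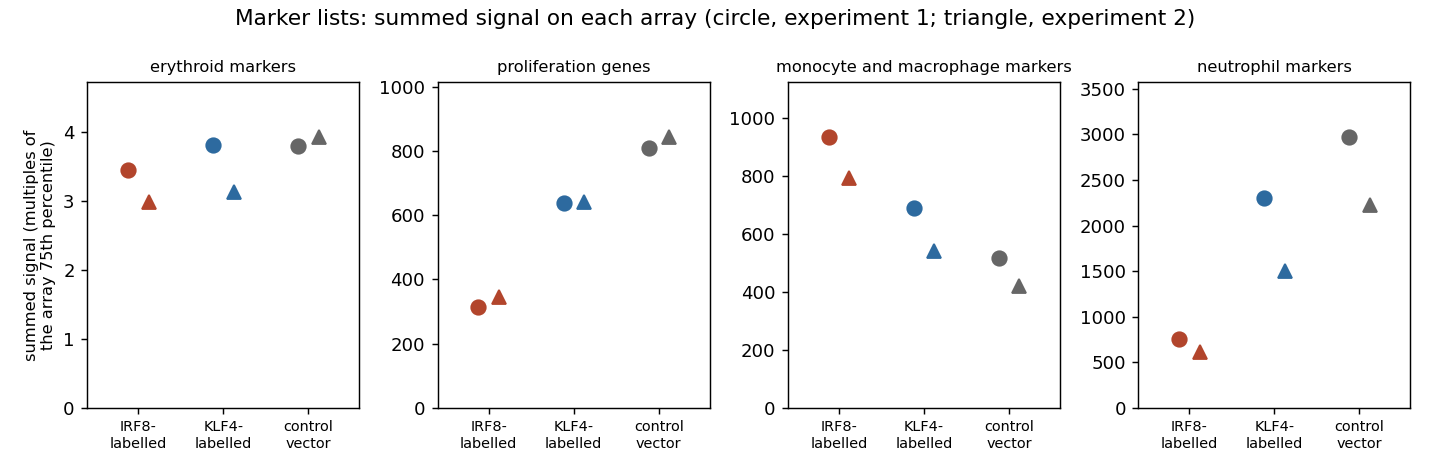
Summed signal of 4 marker lists (y axis, multiples of the 75th percentile of the array, starting at 0) on the 6 arrays, with IRF8-labelled, KLF4-labelled and control cells from left to right. Macrophage markers were highest and neutrophil and proliferation genes lowest in IRF8-labelled cells.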

How the data were processed

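Total RNA was labelled with Cy3 and hybridised to 6 single-colour Agilent mouse arrays. Per the file headers, the deposited intensity came from Agilent software (Feature Extraction 10.7.3.1), with the background subtracted and no scaling between arrays. A deposited value table of intensity equals the processed signal times 1 factor per array and served as an alternative. Control spots were left out and 75 probes with marked spots were dropped. Log2 intensity minus the 75th percentile of the array was tested with limma 3.58.1 in R 4.3.3 on all 6 arrays, 3 groups, 3 residual degrees of freedom, two-sided, with Benjamini-Hochberg adjustment over 13245 genes. Genes are represented by their brightest probe, kept where both arrays of some group had it well above background. Of 28390 probes with RefSeq accessions, 26762 matched a gene (RefSeq GRCm38.p6). A bound, set at the dimmest probe well above background, replaces a fold against a group below background and is not a strict limit.

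The members and lists were chosen with earlier results of these data known. Named are the members with every probe, up to 3 called genes per list and comparison with the largest differences, Irf8, Klf4, and the 2 genes nearest each member; a few genes that this rule would name are not reported here and stay in every count. The replicate number is also the experiment and the slide, and deviations of arrays from group means correlated at r = 0.391 (IRF8 with KLF4), 0.283 (IRF8 with control) and 0.321 (KLF4 with control), so the numbers pair the samples. Alternatives were other scalings, normexp with offset 50 on the median signal (the mean signal was not used), filters, probes, fits and leaving out each array. The procedure was tested on simulated data.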

Additional observations from a re-analysis of the deposited data

How the results depend on the processing

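Over 24 member results and 453 alternative values, 431 stayed on the same side of the threshold, 11 lost a call, 11 gained one and 0 called results changed sign. The alternative values are not all separate checks. Leaving out 1 array of the group not compared gives the same fit as only the 2 groups compared, and each is counted. The number of genes called with spike-in scaling was 4629 for IRF8-labelled against control, 886 for KLF4-labelled against control and 2720 for IRF8-labelled against KLF4-labelled cells. For KLF4-labelled against control, 1499 genes were called with median scaling, 974 without a filter, 1496 with only the 2 groups compared, and 883 to 1496 when 1 array was left out. With the replicate block it was 6745. The share of these calls that were higher was 53.9%, against 67% after quantile normalization, 87.8% with median scaling, 89.4% with spike-in scaling, 65.1% in the deposited table, 84.7% without a filter and 32.4% with the block; for IRF8-labelled against KLF4-labelled cells it was 46.9%, against 35% with median scaling. A requirement of signal above background on all 6 arrays left 2 members called higher in IRF8-labelled and 2 in KLF4-labelled cells against control, since Slc11a1 and Cp were not tested there. Of members called lower in KLF4-labelled cells, there were 0 with median scaling, spike-in scaling or no filter, 2 with that requirement, with limma's trend and robust settings or with the replicate block, and 0 to 1 when 1 array was left out. The block changed no other member call. The median over all genes moved to -0.25 for IRF8-labelled against control with spike-in scaling and to -0.04 for KLF4-labelled against control with median scaling. The cause was not tested. With 2 arrays a group, and control signals of Slc11a1 and Cp below background, the size of their difference is a nominal bound only.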
